A study of Mus musculus with 6 samples.

Results

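Flavin-containing monooxygenases (FMOs) are enzymes of the endoplasmic reticulum that carry a bound flavin (FAD), take electrons from NADPH and pass 1 atom of molecular oxygen to soft nitrogen or sulfur atoms of drugs, dietary amines and endogenous thiols. FMO1, a main form of mouse kidney that is also made in liver, can turn hypotaurine into taurine, FMO2 is the main form of the lung in most mammals, FMO4 is a form of low abundance, and FMO5 prefers Baeyer-Villiger oxidation of ketones over oxidation of nitrogen or sulfur. The genes described here are Fmo1, Fmo2, Fmo4 and Fmo5, which are 4 of the 27179 genes in the table and were taken by their gene symbols. They were selected on their normalized read counts in the comparison of Bmal1 KO with WT, so those counts are a description and carry no test.

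The libraries were made from primary vascular smooth muscle cells, which contract the artery wall, isolated from mouse aorta. There were 3 libraries labelled Bmal1 KO and 3 labelled WT. Bmal1 encodes the partner of CLOCK in the circadian transcription factor that drives the molecular clock. Cells of both labels were grown in DMEM with 10% fetal bovine serum and kept for 7 days in a medium called diabetic, with glucose at 4.5 g/L and hydrogen peroxide at 0.3 mM. The labels give no age, sex or strain of the mice, no promoter or Cre for the deletion, and do not say whether the repeats are separate animals or cultures, so the spread behind each p-value is that of these libraries alone and may be technical. No other medium was analysed here, so nothing in these data separates the genotype from its response to this medium.

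The 4 proteins belong to 1 family, and the stretch that codes for the glycine-rich FAD-binding motif near the start of each protein shows how far the genes have diverged. The 54 coding bases around that motif are given 5′ to 3′ from the GENCODE transcripts of the mm10 build, with capitals marking the 29 bases that all 4 genes share.
Fmo1: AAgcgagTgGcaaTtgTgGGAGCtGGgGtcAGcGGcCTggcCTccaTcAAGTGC
Fmo2: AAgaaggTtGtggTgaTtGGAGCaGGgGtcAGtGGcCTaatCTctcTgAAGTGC
Fmo4: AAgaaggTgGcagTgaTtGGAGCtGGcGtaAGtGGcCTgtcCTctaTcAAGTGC
Fmo5: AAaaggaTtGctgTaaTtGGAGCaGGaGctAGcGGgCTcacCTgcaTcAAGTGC
Over the whole coding sequence the pairs were 59.3% (Fmo1 and Fmo5) to 63.0% (Fmo2 and Fmo4) identical, and the longest run of identical bases in any pair was 24. They are paralogs without near-identical coding sequence; untranslated parts were not compared.

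The libraries held 32503525 to 44657471 reads. Bmal1 itself is listed under its older symbol Arntl and was not lower under the KO label, with 1036, 941 and 1036 normalized counts in Bmal1 KO, against 529, 619 and 590.3 in WT (log2 fold change 0.79, limma with Benjamini-Hochberg adjusted p = 0.000135). Counts over a whole gene cannot show whether an exon is missing. The libraries of the groups also differed in sex-linked RNA. Xist, the RNA of the inactive X chromosome, had 3887, 3874 and 3842 normalized counts in Bmal1 KO, against 89.9, 12.4 and 73.7 in WT, and all 4 Y-linked genes examined fell. Genotype label and sex-linked expression cannot be told apart in these 6 libraries, which touches every difference described. The markers of the labelled cell type were present. All 8 smooth muscle markers were detected in each library, with summed levels of 100318 to 108668 normalized counts in Bmal1 KO and 28785 to 32907 in WT, and all 8 rose. Most genes of any kind passed the same test: of 16086 tested, 71.1% had an adjusted p under 0.05 (limma). These were 36.2% higher and 34.9% lower in Bmal1 KO. Of 8 fibroblast markers 4 rose and 4 fell (sums 17537 to 18727 in Bmal1 KO, 39029 to 40934 in WT). Most of the WT sum was 1 gene, Dcn, with means of 2403 in Bmal1 KO and 26320 in WT. Of 7 endothelial markers 6 rose, with sums of 840.5 to 1110.4 in Bmal1 KO and 332 to 471 in WT, and of 6 macrophage markers 4 rose and 2 fell (sums 2162 to 2422 in Bmal1 KO, 3577 to 4132 in WT). Most of the WT macrophage sum was Cd14, with means of 404 in Bmal1 KO and 2886 in WT. Because several FMOs are liver enzymes, 6 hepatocyte markers were examined, of which 2 rose, 1 did not pass and 3 had too few reads, with sums of 1498 to 7530.4 in Bmal1 KO and 126 to 414 in WT. Nearly all of that sum was Ttr, while the albumin gene Alb had 5.10, 14.4 and 11.4 normalized counts in Bmal1 KO, against 4.59, 0 and 2.76 in WT. Among 5 adipocyte markers only Fabp4 had enough reads for a test and it rose (sums of the list 4728 to 6144 in Bmal1 KO, 1289 to 1953 in WT), and Lep had no reads. The part of these other cell types in the Fmo values was not tested.

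On chromosome 1 in the mm10 build, Fmo4 (162793188 to 162816072), Fmo1 (162829561 to 162866610) and Fmo2 (162874317 to 162898758) lie side by side. Fmo5 lies alone on chromosome 3, at 97609938 to 97655287. In the libraries labelled Bmal1 KO the 3 chromosome 1 members were higher than in WT, by factors that ran from 2.74 for Fmo4 to 4633 for Fmo2, while Fmo5 differed by a factor of 1.09. Values are normalized read counts, in which the authors divided the reads of a library by 1 factor, and ± gives the SD over 3 libraries. No overlap between the groups was seen for 3 of the 4 members, all higher in Bmal1 KO. Among the 16086 genes tested, 76.7% did not overlap in either direction, with 38.5% wholly higher and 38.2% wholly lower in Bmal1 KO.

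Fmo2 had 33448, 34713 and 30285 normalized counts in Bmal1 KO replicates 1, 2 and 3, against 7.34, 7.46 and 6.45 in WT replicates 1, 2 and 3. Every Bmal1 KO library was high, with 32824, 28952 and 26511 reads, and every WT library was close to 0, with only 8, 9 and 7 reads. The means were 32815 ± 2281 in Bmal1 KO and 7.08 ± 0.554 in WT (SD, n = 3 each), a ratio of 4633 with an exact 95% interval of 3114 to 7232 for counting error alone. The log2 difference, taken on log2(value + 1) and so too small for genes with low counts, was 11.99 and ranked 2 from the top among the genes tested. With all WT values under 10, Fmo2 passed the filter for those genes only through its Bmal1 KO values. As CPM, reads scaled to the library total, Fmo2 had 862, 891 and 786 in Bmal1 KO, against 0.196, 0.202 and 0.179 in WT. PCR copies are not independent molecules, so such intervals cover counting error only.

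Fmo1 had 858, 855 and 773 normalized counts in Bmal1 KO replicates 1, 2 and 3, against 35.8, 42.3 and 29.5 in WT. The groups were far apart, and the spread within each was small beside the gap. The means were 829 ± 48.0 in Bmal1 KO and 35.8 ± 6.41 in WT, a 23.1-fold ratio and a log2 difference of 4.51 that ranked 156 from the top. The WT values rest on 39, 51 and 32 reads.

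Fmo4 had 253, 331 and 249 normalized counts in Bmal1 KO, against 108, 86.2 and 109.6 in WT. Bmal1 KO replicate 2 was the highest library, and the lowest Bmal1 KO library still lay above every WT library. The means were 278 ± 46.2 in Bmal1 KO and 101.4 ± 13.1 in WT, a 2.74-fold ratio and a log2 difference of 1.44.

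Fmo5 had 229, 237 and 169 normalized counts in Bmal1 KO, against 188, 203 and 191 in WT. The groups overlapped, since Bmal1 KO replicate 3 lay below and the other Bmal1 KO libraries above all WT libraries. The means were 212 ± 37.3 in Bmal1 KO and 194 ± 8.10 in WT, a 1.09-fold ratio and a log2 difference of 0.11, smaller than the pooled SD within groups on that scale (0.19). In bulk samples a change in the number of expressing cells and a change in RNA per cell cannot be told apart. As a share of the higher group's level, the lower group held 0.0216% for Fmo2 and 4.33% for Fmo1, beside 1.52% for Xist and 2.48% to 4.65% for the Y-linked genes; the part of sex in the Fmo values was not tested.

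**Figure D1:**
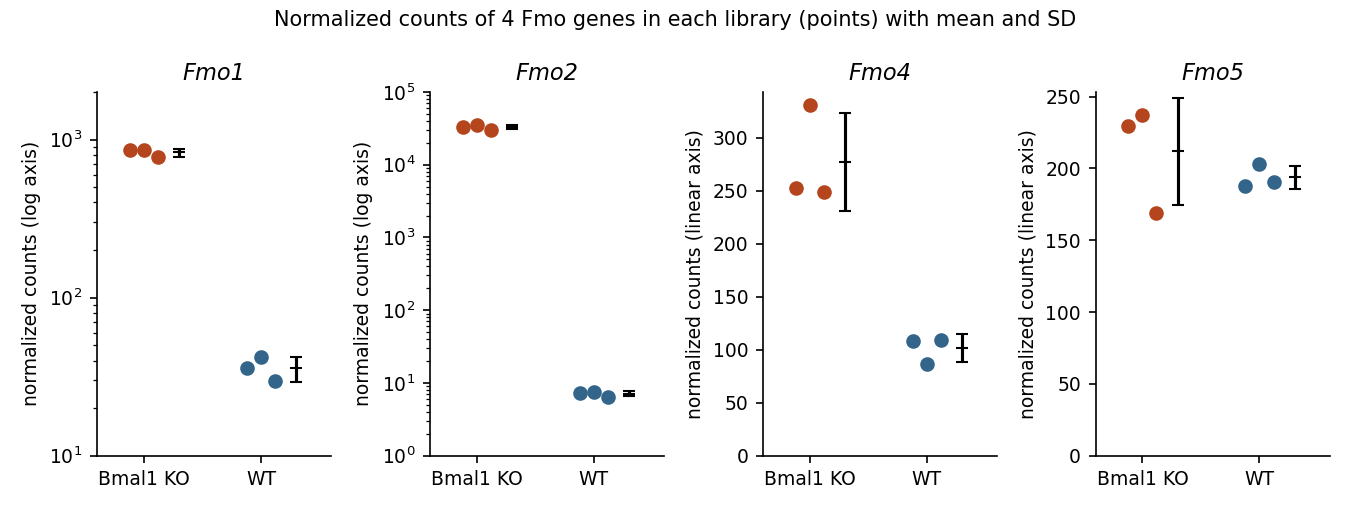
Normalized counts (y axis; log axis for Fmo1 and Fmo2, linear axis for Fmo4 and Fmo5) in each of the 3 Bmal1 KO and 3 WT libraries (points), with mean and SD (bars). The Bmal1 KO points lie above all WT points for Fmo1, Fmo2 and Fmo4, and the groups overlap for Fmo5.

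Levels can be compared between members only per length, so counts were divided by the kilobases of annotated exon. In Bmal1 KO the order was Fmo2 (5850 ± 407 normalized counts per kilobase), Fmo1 (131 ± 7.61), Fmo4 (74.9 ± 12.5) and Fmo5 (37.3 ± 6.58). No neighbours in that order overlapped across the 3 libraries: Fmo2 stood 44.5 times above Fmo1, Fmo1 1.76 times above Fmo4 and Fmo4 2.01 times above Fmo5. In WT the order was turned round, with Fmo5 (34.2 ± 1.43) above Fmo4 (27.3 ± 3.54), Fmo1 (5.69 ± 1.02) and Fmo2 (1.26 ± 0.0988). Fmo5 exceeded Fmo4 in all 3 WT libraries, but only by a factor of 1.25, and the other steps were 4.81-fold and 4.50-fold. Fmo2 thus was the highest of the 4 in Bmal1 KO and the lowest of the 4 in WT.

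The sum over the 4 members was 6094 ± 430 normalized counts per kilobase in Bmal1 KO and 68.5 ± 1.19 in WT. Fmo2 made up 96.0 ± 0.120% of it in Bmal1 KO and 1.85 ± 0.162% in WT, while Fmo5 made up 0.610 ± 0.0688% in Bmal1 KO and 49.95 ± 2.98% in WT. Among the 14854 tested genes with a length, Fmo2 ranked 223 from the top by mean level per kilobase in Bmal1 KO, against 14430 in WT. Genes low in both groups were not ranked, and Fmo2 was ranked only through its Bmal1 KO values, so the filter shapes its WT rank. Fmo1 ranked 8191 in Bmal1 KO and 13311 in WT, and Fmo4 9739 in Bmal1 KO and 11321 in WT. Fmo5 ranked 11263 in Bmal1 KO and 10992 in WT.

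**Figure D2:**
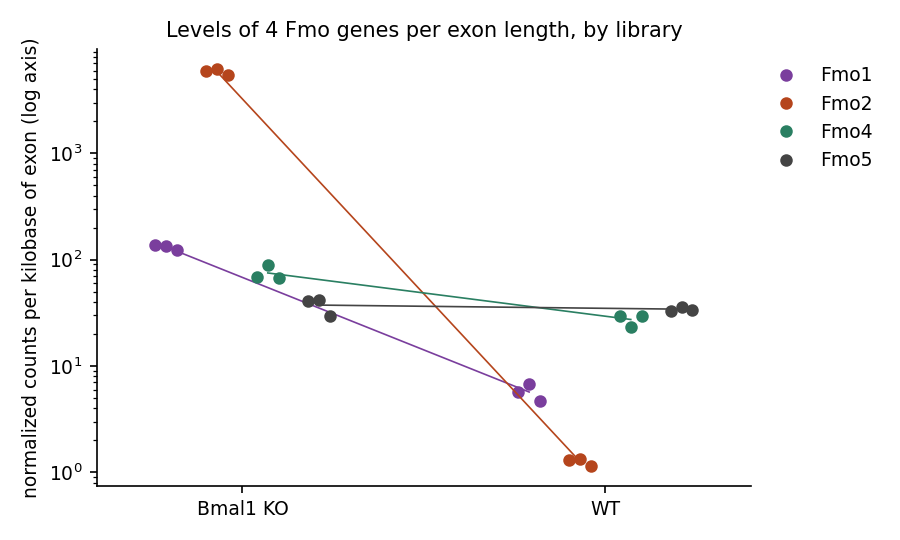
Normalized counts per kilobase of exon (y axis, log axis) for the 4 Fmo genes in the 3 Bmal1 KO and 3 WT libraries; points are libraries and lines join group means. Fmo2 is the highest gene in Bmal1 KO and the lowest in WT, while the Fmo5 line is nearly level.

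Fmo6, Fmo9, Gm4846 and Gm4847, further genes of the family, had few reads. Fmo6, which lies beyond Fmo2 in the chromosome 1 cluster, had 70.3, 41.96 and 31.99 normalized counts in Bmal1 KO, against 0, 0 and 2.76 in WT. It rose with a log2 fold change of 4.90 (SE 0.63, limma with Benjamini-Hochberg adjusted p = 0.000258). With all WT values under 10, Fmo6 could be tested only because all 3 Bmal1 KO libraries reached 10. The filter thus fixed this separation in advance, and the p-value adds no support to it. Its 3 WT reads, all in replicate 3, make the ratio of 52.2 loose (17.5 to 256 by 95% counting error), and its log2 fold change was 2.61 with a pseudocount of 8, 5.76 with DESeq2, 5.55 with edgeR and 5.54 without WT replicate 3. Fmo9, Gm4846 and Gm4847, on chromosome 1 but apart from the cluster, had 3, 1 and 2 reads over the 3 Bmal1 KO libraries and 1, 0 and 0 over the 3 WT libraries, too few to be tested.

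The genes that supply the cofactors of FMOs showed small differences beside those of Fmo1 and Fmo2. Of 5 genes of riboflavin transport and FAD synthesis 1 rose, 2 fell and 2 missed the threshold of an adjusted p of 0.05 (limma, Benjamini-Hochberg over all genes tested), and the list's median was -0.18 on the log2 scale. Over all 16086 genes tested 71.1% passed, 36.2% higher and 34.9% lower in Bmal1 KO, and the median was -0.012. The riboflavin kinase gene Rfk had 1112 ± 13.1 normalized counts in Bmal1 KO and 1178 ± 71.0 in WT (log2 fold change -0.081, adjusted p = 0.337), and the FAD synthase gene Flad1 445 ± 30.3 in Bmal1 KO and 503 ± 35.01 in WT (adjusted p = 0.150). The riboflavin transporter gene Slc52a3 rose 2.32-fold to 66.5 ± 11.02, against 28.7 ± 8.13 in WT (adjusted p = 0.00527). The mitochondrial carrier gene Slc25a32 fell 1.25-fold (adjusted p = 0.00576) and the transporter gene Slc52a2 1.21-fold (adjusted p = 0.0188), but the adjusted p of Slc52a2 was 0.0590 without Bmal1 KO replicate 1 and 0.0757 without Bmal1 KO replicate 3 (limma).

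Of 9 genes whose products make NADPH, 4 rose, 2 fell and 3 missed the threshold (median 0.20 on the log2 scale). Thus 66.7% passed, against 71.1% of all genes tested. With TMM scaling or edgeR 3 of the 9 rose. Without WT replicate 1 or 2, 5 rose, and without any 1 of the other libraries 3 rose. The malic enzyme gene Me1 rose to 3253 ± 30.7 in Bmal1 KO, against 2111 ± 213 in WT (1.54-fold, adjusted p = 0.000231), and Pgd, of the pentose phosphate pathway, rose 1.52-fold (adjusted p = 0.000178). The folate enzyme genes Mthfd1 and Aldh1l1 fell 1.72-fold (adjusted p = 3.91e-05) and 1.63-fold (adjusted p = 0.000163).

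Genes of taurine and cysteamine metabolism, some of which supply the hypotaurine that FMO1 oxidises, were mostly lower, but not Cdo1. Of 7 genes 6 were tested: 1 rose, 4 fell and 1 missed the threshold (median -0.39 on the log2 scale). Here 83.3% passed, against 71.1% of all genes tested, of which 34.9% were lower in Bmal1 KO. Without Bmal1 KO replicate 3, 3 of the 6 fell. Cdo1, which oxidises cysteine in the first step towards hypotaurine, rose 15.1-fold, with 2433, 2435 and 2485 normalized counts in Bmal1 KO, against 160.5, 158 and 169 in WT (log2 fold change 3.91, SE 0.078, adjusted p = 1.91e-08). The cysteamine dioxygenase gene Ado fell 1.45-fold (adjusted p = 0.000190). The pantetheinase genes, whose products release cysteamine, fell as well, Vnn1 to 617 ± 62.6 in Bmal1 KO, against 1329.9 ± 58.4 in WT (adjusted p = 2.63e-05), and Vnn3 to 3.06, 1.20 and 0, against 179.8, 144 and 132 in WT (adjusted p = 2.48e-05). Vnn3 had 4 reads in Bmal1 KO, so its 107-fold lower level could lie between 41.6-fold and 395-fold by 95% counting error. Its Bmal1 KO values were all under 10, so it could be tested only because every WT library reached 10. The filter thus fixed its separation in advance.

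Cytochrome P450 genes, the other large family of drug-oxidising enzymes in the endoplasmic reticulum, and their partners moved both ways. Of 21 genes 17 were tested: 10 rose, 4 fell and 3 missed the threshold (median 0.299 on the log2 scale). In this list 82.4% passed, against 71.1% of all genes tested. Cyp1a1, a classic target of the aryl hydrocarbon receptor, had 193, 187 and 202 normalized counts in Bmal1 KO, against 0, 1.66 and 0 in WT (log2 fold change 7.14, adjusted p = 5.58e-06). Its 2 WT reads put the ratio at 351, anywhere from 96.6 to 2905 by 95% counting error. Cyp2b10 rose to 90.2 ± 13.2, against 1.502 ± 0.582 in WT (adjusted p = 8.00e-06), a ratio of 60.1 with an interval of 25.4 to 187 on 5 WT reads. Cyp1a1 and Cyp2b10 had WT values under 10, so they could be tested only because every Bmal1 KO library reached 10. The filter thus fixed their separation in advance. Cyp4v3, a fatty acid hydroxylase gene, rose 2.30-fold (adjusted p = 5.09e-06) and Cyp2d22 2.12-fold (adjusted p = 1.12e-05). The 4 genes that fell, named after their values were seen, were Cyp2f2 (7.66-fold, adjusted p = 0.000225), Cyp2s1 (7.06-fold, adjusted p = 7.38e-05), Cyp2u1 (2.02-fold, adjusted p = 0.00117) and Cyp1b1. Cyp1b1, also a known target of the aryl hydrocarbon receptor, had 30977 ± 793 normalized counts in Bmal1 KO and 46290 ± 4173 in WT (1.49-fold lower, adjusted p = 0.000671).

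Genes of xenobiotic sensing also split, with 2 of the 8 tested genes rising, 4 falling and 2 missing the threshold (median -0.031 on the log2 scale). The share that passed was 75%, against 71.1% of all genes tested. With upper-quartile scaling 3 of the 8 rose and 3 fell. Ahr, which encodes the aryl hydrocarbon receptor, fell 7.16-fold, to 353, 416 and 380.4 normalized counts in Bmal1 KO, against 2612, 2761 and 2860 in WT (adjusted p = 1.34e-07). Its partner gene Arnt fell 1.85-fold (adjusted p = 3.32e-05). The receptor's repressor gene Ahrr rose to 217 ± 13.5 in Bmal1 KO, against 8.83 ± 2.09 in WT (24.5-fold, adjusted p = 2.84e-06), and the quinone reductase gene Nqo1 rose to 1577 ± 152, against 331 ± 15.8 in WT (adjusted p = 7.24e-07). Tiparp, another known target of the receptor and likewise named after its values were seen, had 829 ± 15.9 in Bmal1 KO and 765 ± 67.9 in WT (adjusted p = 0.253).

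Other enzymes that oxidise amines were mostly lower. Of 8 amine and aldehyde oxidase genes 7 were tested: 1 rose, 4 fell and 2 missed the threshold (median -0.61 on the log2 scale). The share that passed, 71.4%, was close to the 71.1% of all genes tested, of which 34.9% were lower in Bmal1 KO. The monoamine oxidase genes Maoa and Maob fell to 3887 ± 248 and 898 ± 56.1 in Bmal1 KO, against 8253 ± 606 and 1986 ± 84.3 in WT (adjusted p = 1.04e-05 and adjusted p = 6.84e-06). The spermine oxidase gene Smox fell 1.53-fold (adjusted p = 0.000351). Aoc3, which encodes the amine oxidase VAP-1, rose 8.59-fold to 86.6 ± 8.32, against 10.1 ± 0.943 in WT (adjusted p = 2.37e-05).

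Of 6 genes for flavin-dependent monooxygenases of other families 5 were tested: 2 rose, 1 fell and 2 missed the threshold (median 0.046 on the log2 scale). So 60% passed, against 71.1% of all genes tested. Mical1 and Mical2, whose products oxidise actin, rose 1.63-fold (adjusted p = 0.000114) and 1.84-fold (adjusted p = 0.000769), and Coq6, of coenzyme Q synthesis, fell 1.90-fold (adjusted p = 0.000207). The squalene epoxidase gene Sqle had 3076 ± 67.9 normalized counts in Bmal1 KO and 3037 ± 95.7 in WT (adjusted p = 0.777), and Mical3 239 ± 18.8 in Bmal1 KO and 234 ± 44.8 in WT (adjusted p = 0.815). Kmo had too few reads, with a mean of 12.4 ± 3.97 in Bmal1 KO and 2.12 ± 2.15 in WT.

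**Figure D3:**
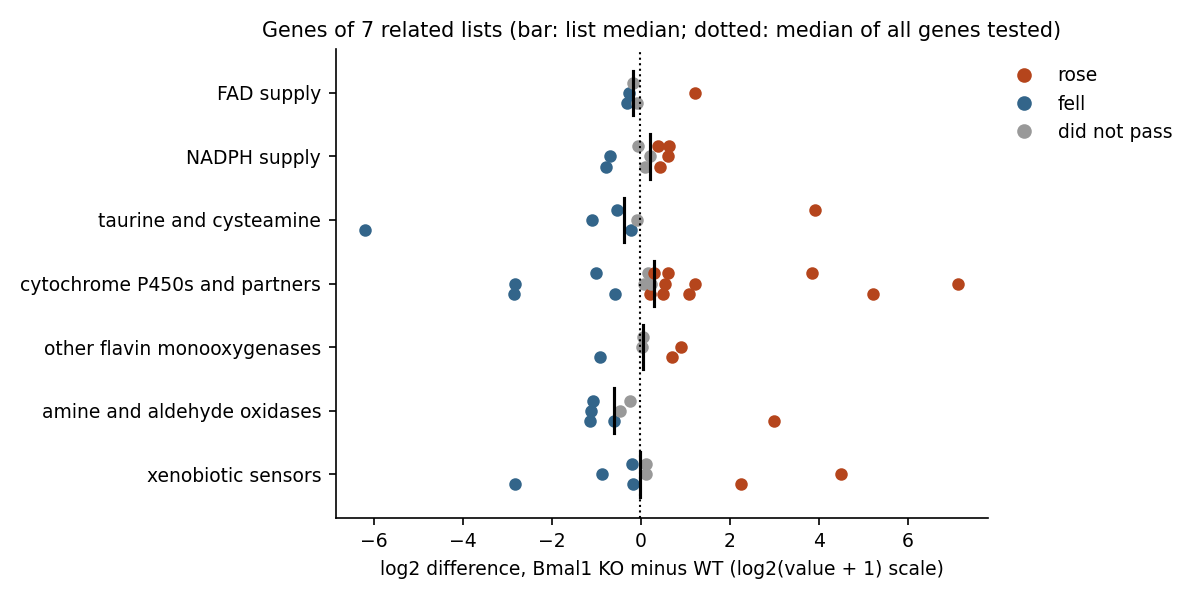
Log2 difference, Bmal1 KO minus WT (x axis, log2(value + 1) scale), of each tested gene in 7 related lists, coloured by call; bars are list medians and the dotted line is the median of all genes tested. The list medians lie between -0.61 and 0.299, and the widest values are those of Vnn3 (-6.19) and Cyp1a1 (7.14).

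No tested gene beside the cluster differed by as much as Fmo1 or Fmo2. Myoc, 143 kb from the cluster on the Fmo4 side, had too few reads to be tested. It had 13.2, 9.59 and 34.3 normalized counts in Bmal1 KO, against 1.83, 1.66 and 1.84 in WT. On 51 reads in Bmal1 KO and 6 in WT its ratio was 10.7, with an interval of 4.59 to 30.5 for counting error alone. That interval includes the 23.1-fold ratio of Fmo1. Of the 16 nearest protein-coding genes, 8 on each side, 11 were tested: 4 rose, 1 fell and 6 missed the threshold, so 45.5% passed, against 71.1% of all genes. With TMM scaling the split was even, with 3 higher and 3 lower. Their log2 fold changes had a median of 0.089. Without Bmal1 KO replicate 2 or 3, only 3 of them passed. Prrc2c, 52.6 kb from the cluster on the Fmo4 side, had 12001 ± 927 normalized counts in Bmal1 KO and 10151 ± 1762 in WT (log2 fold change 0.25, adjusted p = 0.114). On the other side Mroh9, at 39.8 kb, had only 5 reads in Bmal1 KO and 4 in WT. The mesenchymal homeobox gene Prrx1, 261 kb away, rose 3.83-fold to 27793 ± 603 in Bmal1 KO, against 7265 ± 242 in WT (adjusted p = 1.52e-07). The dynamin gene Dnm3 rose 4.67-fold (adjusted p = 4.26e-05) and the kinesin-associated gene Kifap3 2.72-fold (adjusted p = 1.31e-06). Mettl18 fell 1.57-fold (adjusted p = 0.0180), a call that 1 library could end: the adjusted p was 0.0527 without Bmal1 KO replicate 2, 0.0604 without Bmal1 KO replicate 3 and 0.0574 without WT replicate 1 (limma).

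Of 15 genes around Fmo5, 10 were tested: 4 rose, 2 fell and 4 missed the threshold, so 60% passed, against 71.1% of all genes. Their median was 0.22 on the log2 scale. Prkab2, which encodes a subunit of the energy sensor AMPK and starts 2.92 kb beyond Fmo5, rose 2.71-fold to 1719 ± 42.1 in Bmal1 KO, against 634 ± 26.3 in WT (adjusted p = 1.37e-06). Pde4dip rose 3.46-fold (adjusted p = 1.34e-06) and the lysophosphatidic acid phosphatase gene Acp6 fell 4.14-fold (adjusted p = 5.97e-07). Chd1l, a chromatin remodeller gene, overlaps the first 285 bases of the RefSeq gene Fmo5 and fell to 323 ± 45.6 in Bmal1 KO, against 639 ± 48.2 in WT (adjusted p = 0.000258). The strand setting of the counting is not given in the sources used here, so reads in that overlap are uncertain.

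**Figure D4:**
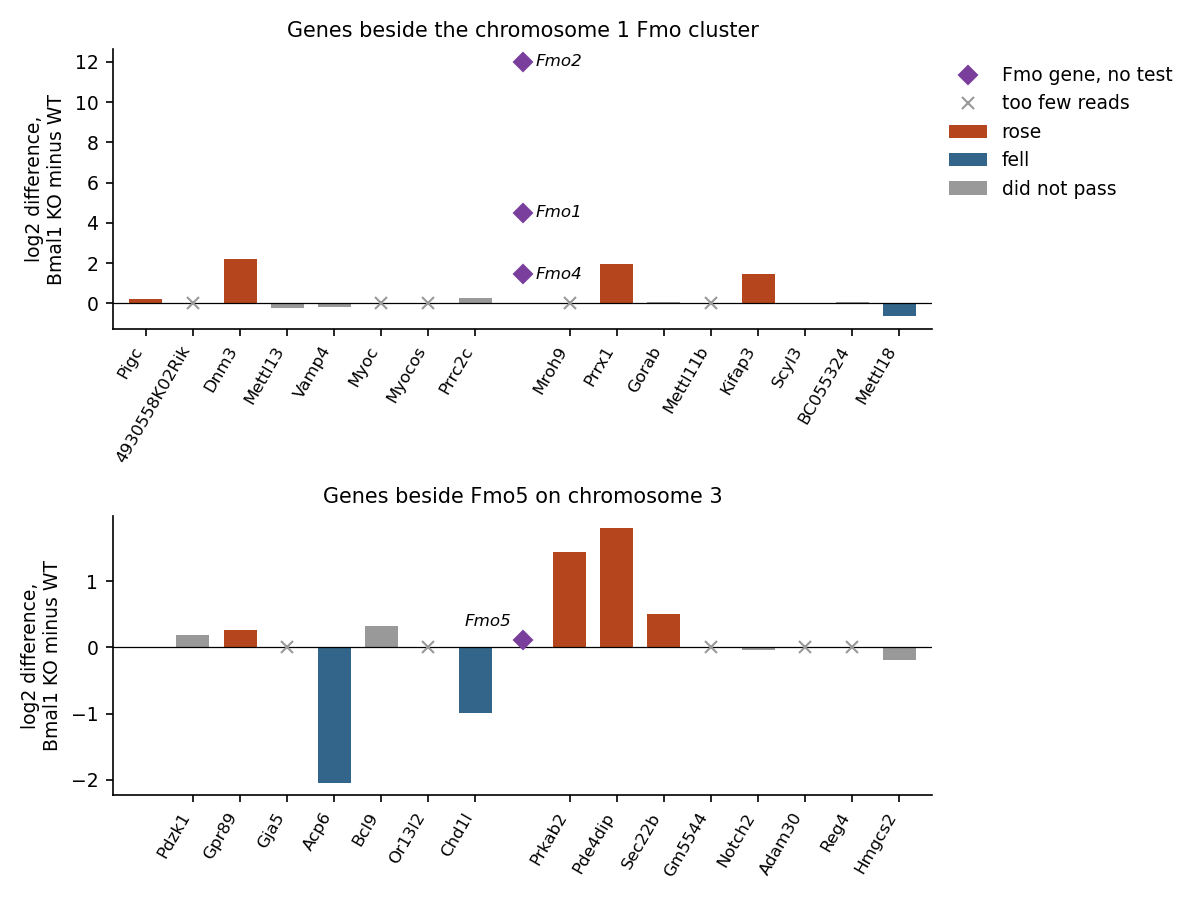
Log2 difference, Bmal1 KO minus WT (y axis, log2(value + 1) scale), of 16 protein-coding genes beside the chromosome 1 Fmo cluster (top) and of 15 beside Fmo5 (bottom), in genome order along the x axis; bars are coloured by call, crosses had too few reads and diamonds are the Fmo genes. The tested neighbours of the cluster lie between -0.64 and 2.22, while Fmo1 and Fmo2 lie at 4.51 and 11.99.

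The RefSeq promoter table (GRCm38.p6, the same build) held windows for Fmo2, Fmo4 and Fmo5. The windows of Fmo4, Fmo5 and a second Fmo2 start overlap annotated exons and are not shown. They also lie inside the gene spans given above, at chr1:162812550-162812799 for Fmo4 and chr3:97628769-97629018 for Fmo5. The bases before the outer ends of Fmo4 and Fmo5 were therefore not searched. The 250 bases before the first start of Fmo2, the member with the widest gap, are given here (chr1:162898759-162899008, minus strand, written 5′ to 3′ towards the gene).
Fmo2: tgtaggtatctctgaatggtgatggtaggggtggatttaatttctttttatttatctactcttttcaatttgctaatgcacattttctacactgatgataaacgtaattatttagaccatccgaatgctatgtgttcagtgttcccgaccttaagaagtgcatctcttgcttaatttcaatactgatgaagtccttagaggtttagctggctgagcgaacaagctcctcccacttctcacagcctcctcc
Both strands were searched for the E-box CACGTG that CLOCK and BMAL1 bind, its variant CACGTT, the element AGGTCA of REV-ERB and ROR receptors, the core GCGTG of the aryl hydrocarbon receptor, the antioxidant response core TGACNNNGC, the CArG box of serum response factor, TATAAA and CCAAT. None of these 8 was present in the window shown, so no base is in capitals. The window of the second Fmo2 start, of which 227 bases are annotated exon, held CACGTT 23 bases and AGGTCA 9 bases before that start. The Fmo4 window held AGGTCA and CCAAT, and the Fmo5 window TATAAA and CCAAT, 1 match each. Of 32851 promoter windows of this length in the table, 6.02% held CACGTG, 3.85% CACGTT, 14.0% AGGTCA, 28.2% GCGTG, 10.2% TGACNNNGC, 1.47% a CArG box, 12.4% TATAAA and 33.8% CCAAT. A match or its absence says only whether these letters are in these bases.

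For each member the 3 genes were taken whose log2(value + 1) followed it most closely over the 6 libraries, by Pearson's r. These 6 points fall into 2 groups, so r mostly reflects the gap between them, and 905 of 11977 genes with a mean of at least 100 reached an r of 0.99 with Fmo2 and 801 with Fmo1. Closest to Fmo2 were Adgrd1, an adhesion G protein-coupled receptor gene (r = 0.99997), the globin gene Cygb (0.99991) and Tecrl (0.99991). Adgrd1 had 3627 ± 179 normalized counts in Bmal1 KO and 30.4 ± 0.880 in WT, and Tecrl had 343 ± 17.2 in Bmal1 KO and no reads in WT. Cygb had 7690 ± 92.6 in Bmal1 KO and 1155 ± 41.4 in WT, a ratio of 6.66. Closest to Fmo1 were Ripk3 (0.99998), a kinase gene of necroptosis, Tmem119 (0.99986) and the zinc transporter gene Slc39a13 (0.99965). Their ratios of Bmal1 KO to WT were 2.21, 4.04 and 2.09, against 23.1 for Fmo1, so a high r did not mean an equal fold. Closest to Fmo4 were Arhgap33 (0.99781), Snx6 (0.99723) and Lmtk3 (0.99625), and 37 genes reached 0.99. For Fmo5, whose groups overlap, Tax1bp1 (0.94635), Lonp2 (0.92047) and Atat1 (0.91380) came closest and no gene reached 0.99.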

How the data were processed

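Per the labels' protocols, RNA was taken with a Qiagen kit and 1.0 µg of total RNA went into Illumina stranded mRNA libraries. Per the submitters' processing notes, Trimmomatic, HISAT2 and featureCounts were used with the mm10 build; no version, order or strand setting is given in the sources used here. The deposited table holds a signal per gene and library, reads divided by 1 factor per library, and dividing by the smallest step gave whole reads for 100% of values (tolerance 0.01). Library totals were 32503525 to 44657471 reads, and 0 columns stayed unmapped. Groups came from the sample titles.

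After genes below 10 in more than 3 libraries were dropped, limma (trend on mean level, group as the only term) was fitted to log2(value + 1) of the other 16086. P-values were adjusted by Benjamini-Hochberg at 0.05, and every adjusted p is from limma unless another tool is named. Members and lists were chosen with earlier results of these data known. Text genes were the members, Bmal1, up to 4 of each list or neighbour set with the smallest adjusted p, all of lists of up to 6 genes, and the 3 genes most like each member. Prrc2c and Mroh9 were named for position and markers for their lists. Myoc and 5 other genes were named after their values were seen. In all, 2 genes are not reported here and were left out of the lists, neighbour sets and likeness ranking, so no statement covers the whole family. Exon lengths came from GENCODE M21. The script was tested on simulated data. Alternatives were other scalings, a pseudocount of 8, no filter, a stricter filter of 1 CPM, a replicate block, each library left out, and edgeR and DESeq2 on recovered counts. Tools were limma 3.58.1 under R 4.3.3, with DESeq2 1.42.0 and edgeR 4.0.16.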

Additional observations from a re-analysis of the deposited data

How the results depend on the processing

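The Fmo2 log2 difference was 12.18 with DESeq2, 12.12 with edgeR and 11.09 with a pseudocount of 8, which also gave 4.26 for Fmo1. Leaving out each library gave folds of 4434 to 4812 for Fmo2, 21.2 to 25.4 for Fmo1, 2.48 to 2.88 for Fmo4 and 1.03 to 1.20 for Fmo5. The stricter filter tested none of the other Fmo genes, so 0 of them passed. Calls among the neighbours of the chromosome 1 cluster ran from 3 to 5 when each library was left out, falling to 3 without Bmal1 KO replicate 2 or 3. Over all genes, edgeR called 11479, and the median log2 fold change ran from -0.072 with TMM scaling to 0.065 with no filter. Of 79 single genes 59 kept their call under every alternative that tested them, and 20 changed it under at least 1, and the sign turned for 7 genes, none of them past the threshold there or as reported (Sqle and Mical3 with TMM and edgeR among them). A pseudocount of 8 gave log2 fold changes of 4.57 for Cyp1a1, 3.36 for Cyp2b10, -4.09 for Vnn3, 2.38 for Aoc3 and 3.75 for Ahrr, DESeq2 gave 8.37 for Cyp1a1 and 5.94 for Cyp2b10, and edgeR gave 8.06 for Cyp1a1. The same-numbered replicates did not deviate together (r = -0.0045 to 0.084), and a replicate block left 11556 genes called. Depth limits genes with few WT reads, Fmo2 and Fmo6 among them, whose counting intervals leave out the spread between libraries.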
